A study of Tribolium castaneum with 8 samples.

Results

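The cells described here carry the label NBs II/INPs, which the authors gave to type II neuroblasts together with intermediate neural progenitors (INPs). They were taken as every cell whose deposited label reads exactly NBs II/INPs. Cells under the question-mark labels NBs II/INPs/newborn neurons_1? and NBs II/INPs/newborn neurons_2? were not counted among them. In all 880 of 31573 annotated cells qualified, of which 103 of 10425 were Drosophila cells and 777 of 21148 were cells of the red flour beetle Tribolium castaneum. The Drosophila cells form 1 pooled set, and the sources used here do not give their stage, genotype or isolation. The beetle cells came from 8 single-cell RNA libraries made with 10x Genomics droplets from untreated embryos aged 35 to 50 hours. They had been sorted for turbo GFP from a Gal4 enhancer trap line that marks neuroblasts, and live single cells were kept by scatter and by exclusion of DAPI. Each library has its own strain name, GoGal41519 to GoGal41526 in an unbroken run, while the design text speaks of a single line, so strain was not used to separate libraries.

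Neuroblasts are the stem cells of the insect central nervous system. A type I neuroblast buds off ganglion mother cells, each of which divides into a pair of neurons or glia. A type II neuroblast instead produces INPs, which divide several times and make ganglion mother cells of their own, so that few type II neuroblasts give rise to large brain lineages. In Drosophila, type II neuroblasts lack the proneural factor Asense and express the ETS transcription factor pointed (pnt) and the zinc finger factor buttonhead (btd), and INPs use the zinc finger factor earmuff (erm) to keep from turning back into neuroblasts. The deposited table holds a barcode, a label and a species for each cell and no expression values. The label could therefore not be checked here against pnt, btd and erm, and the cells are called by their label throughout.

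NBs II/INPs cells were present in 7 of the 8 beetle libraries, and 1 library held most of them. Library 8 contributed 551 cells, which is 70.9% of the beetle cells with this label, although it contributed 36.1% of all beetle cells. Library 7 had 81 cells, library 6 had 39, library 2 had 37, library 5 had 36, library 1 had 25 and library 4 had 8. Library 3 had 0 of its 77 cells, which allows a share of up to 3.90%, taking 3 cells of the total as the limit of a count of 0. The 7 libraries other than library 8 thus held 226 NBs II/INPs cells between them. Intervals below are exact two-sided Clopper-Pearson 95% intervals, whose upper bound at 0 of 77 cells is 4.68%. Limits and intervals cover counting error only.

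A first question was how many NBs II/INPs cells there were for each cell of NBs I, the label for type I neuroblasts. Library 8 had 0.394 NBs II/INPs cells per NBs I cell (95% interval 0.356 to 0.435). Next came library 7 at 0.116, library 6 at 0.106, library 1 at 0.0874, library 2 at 0.0855, library 4 at 0.0816, library 5 at 0.0642 and library 3 at 0. The interval of library 8 lay above all others, and from library 3 up to library 7 each neighbour in the order overlapped the next. The beetle mean was 0.117 ± 0.117 NBs II/INPs cells per NBs I cell over all libraries (SD, n = 8). Without library 8 it was 0.0772 ± 0.0380 (SD, n = 7), and the mean of the 5 other libraries with at least 500 cells was 0.0918 ± 0.0201 (SD).

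The same order of libraries held in outline among the 4 neuroblast labels without a question mark, which are NBs I, NBs II/INPs, Midline_NBs and Sensory NBs. NBs II/INPs made up 21.6% of the cells with these 4 labels in library 8 (95% interval 20.0% to 23.2%). It made up 9.09% in library 7, 8.13% in library 6, 7.10% in library 1, 6.84% in library 4, 6.81% in library 2, 5.46% in library 5 and 0% in library 3. Library 3 had only 21 cells with these labels, so its count of 0 allows a share of up to 14.3% by the limit of 3 cells. The mean was 8.13% ± 6.09 with library 8 (SD, n = 8) and 6.20% ± 2.96 without it (SD, n = 7).

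Among the cells outside NBs I, which leaves out the most frequent Drosophila label, NBs II/INPs made up 8.83% in library 8 (95% interval 8.14% to 9.56%). The other libraries lay at 2.72% in library 4, 2.67% in library 7, 2.63% in library 6, 2.40% in library 2, 1.70% in library 1, 1.14% in library 5 and 0% in library 3. On this basis library 4 came next after library 8, but it rested on 8 NBs II/INPs cells (95% interval 1.18% to 5.29%). The mean was 2.76% ± 2.63 with library 8 (SD, n = 8) and 1.89% ± 1.02 without it (SD, n = 7).

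**Figure D1:**
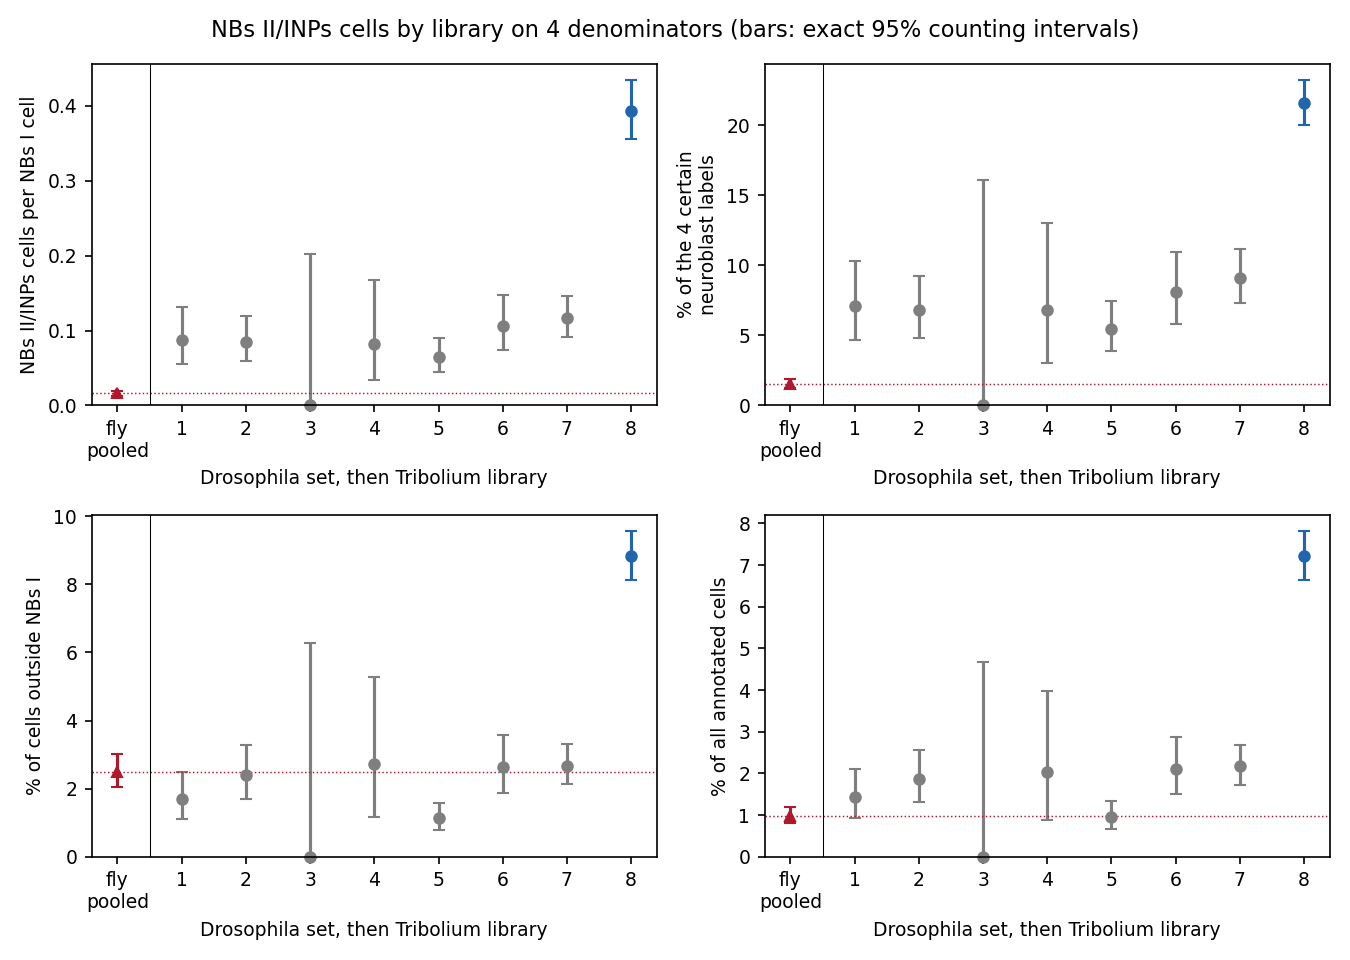
NBs II/INPs cells in the pooled Drosophila set (triangle, left of the vertical line) and in each of the 8 Tribolium libraries, as cells per NBs I cell and as a percentage of the 4 certain neuroblast labels, of the cells outside NBs I and of all annotated cells. Bars are exact 95% counting intervals, and the dotted line carries the Drosophila value across. Library 8 (blue) lies above the other libraries in each panel, and the Drosophila value lies below 7 of 8 libraries per NBs I cell (0.0163) but among libraries 1 to 7 as a share of the cells outside NBs I (2.50%).

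Apart from library 8, the ratio of NBs II/INPs to NBs I varied less. The chi-square of the counts, divided by its degrees of freedom, is near 1 when libraries differ by counting alone. For NBs II/INPs against NBs I it was 46.6 over the 8 libraries and 1.89 over the 7 without library 8. For NBs II/INPs among the 4 certain neuroblast labels it was 34.5 and 1.63. The excess over counting error was larger when labels beyond those 4 entered the denominator. Without library 8 the chi-square per degree of freedom was 4.18 for the share outside NBs I. It was 6.18 for the share among the 3 labels that name NBs II/INPs. This value also depends on the number of cells counted, so it does not measure the spread of the shares themselves. Library 5, which had the lowest nonzero value on each of the 6 bases computed, had NBs II/INPs at 3.90% of those 3 labels (95% interval 2.75% to 5.36%), against 10.3% in library 7, which held nearly as many cells.

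Library 8 differed in some labels and not in others. Relative to NBs I, NBs II/INPs was 5.10 times the mean of the other 7 libraries. Sensory NBs was 8.74 times that mean, at 0.253 against 0.0290 ± 0.0188 cells per NBs I cell (SD, n = 7). NBs II/INPs/newborn neurons_2? was 2.38 times the mean of the others, and Midline_NBs 1.67 times. GMC, the usual short form of ganglion mother cell, had 2.09 cells per NBs I cell in library 8, against 2.14 ± 0.330 in the others (SD, n = 7). NBs II/INPs/newborn neurons_1? had 0.363 in library 8, against 0.712 ± 0.308 (SD, n = 7), below each of the others. The hemocyte label, plasmatocytes/embryonic hemocytes/macrophages, had 0.0865 cells per NBs I cell in library 8, against 0.268 ± 0.115 (SD, n = 7), which is 0.323 times the mean of the others. Library 4 lay lower still in it, at 0.0714. With NBs II/INPs/newborn neurons_2? and Sensory NBs also left out of the denominator, NBs II/INPs made up 10.7% of the cells outside NBs I in library 8 and at most 2.90% in another library. Both of these labels were high in library 8, so leaving them out must raise its share the most. The result is therefore not a separate check. With 7639 cells, library 8 was the largest of the 8. The number of molecules per cell was not used here, and the part of library size or depth in these values was not tested.

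A further question, given by the title of the series, was whether NBs II/INPs cells were rarer or more common in fly than in beetle, and the answer depended on the denominator. Per NBs I cell, Drosophila had 0.0163 NBs II/INPs cells (95% interval 0.0133 to 0.0198), against the Tribolium mean of 0.117 ± 0.117 (SD, n = 8), which is 0.140 times as many. The intervals of 7 of 8 libraries lay wholly above the Drosophila interval, and library 3, with 0 NBs II/INPs cells against 20 NBs I cells, allows a ratio of up to 0.15 by the limit of 3 cells and has an interval up to 0.203. Against the mean without library 8 the Drosophila ratio was 0.212 times as high. Among the 4 certain neuroblast labels, the Drosophila share of NBs II/INPs was 1.56% (95% interval 1.27% to 1.89%), against 8.13% ± 6.09 in Tribolium (SD, n = 8) and 6.20% ± 2.96 without library 8 (SD, n = 7). Here too 7 of 8 libraries had intervals wholly above the Drosophila one. In Drosophila, NBs I made up 6305 of the 6613 cells with these 4 labels. The share therefore largely repeats the ratio to NBs I and is not a separate line of evidence. Of all annotated cells, a total that also includes NBs I, NBs II/INPs made up 0.988% in Drosophila. The Tribolium mean was 2.22% ± 2.15 (SD, n = 8), and 1.51% ± 0.794 without library 8 (SD, n = 7). On this basis the intervals of 4 of 8 libraries lay wholly above the Drosophila one, and those of the other 4 overlapped it. The difference, Drosophila minus Tribolium, was -1.24 percentage points with library 8 and -0.524 without it.

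Low ratios to NBs I were not limited to NBs II/INPs. NBs I made up 6305 of the 10425 Drosophila cells, against a mean of 20.1% ± 3.91 of the cells of a Tribolium library (SD, n = 8). This denominator is common to all of the ratios below, so a low value is not particular to a label. Of the 9 labels other than NBs I, 8 had fewer cells per NBs I cell in Drosophila than in the Tribolium mean. NBs II/INPs stood at 0.140 times the Tribolium mean. Midline_NBs stood at 0.125 times, GMC at 0.144, NBs II/INPs/newborn neurons_1? at 0.146, Mesodermal/muscle progenitors at 0.155, Sensory NBs at 0.320, NBs II/INPs/newborn neurons_2? at 0.189 and the hemocyte label at 0.227 times. These values depended on library 8 for some labels. Without it NBs II/INPs stood at 0.212 times the mean of the other 7 libraries. NBs II/INPs/newborn neurons_2? and the hemocyte label lay close to that, at 0.222 and 0.208. Sensory NBs stood higher, at 0.630. GMC stood at 0.143, NBs II/INPs/newborn neurons_1? at 0.137, Mesodermal/muscle progenitors at 0.157 and Midline_NBs at 0.135. The exception was PCGs, an abbreviation that the labels do not spell out. It had 85 Drosophila cells and 2 Tribolium cells, and stood at 21.9 times the Tribolium mean over all 8 libraries. Whether NBs II/INPs differed from the other labels in this ratio was not tested.

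Among the cells outside NBs I, NBs II/INPs came to 2.50% of the Drosophila cells (95% interval 2.05% to 3.02%), against 2.76% ± 2.63 in Tribolium (SD, n = 8). Of the 8 libraries, 4 lay above the Drosophila share and 4 below it. The interval of library 8 lay above the Drosophila interval, that of library 5 lay below it, and those of the other 6 overlapped it. The difference, Drosophila minus Tribolium, was -0.261 percentage points with library 8 and 0.606 without it, so its direction rests on that library. Per GMC cell, NBs II/INPs stood at 0.0532 in Drosophila (95% interval 0.0432 to 0.0649), against 0.0554 ± 0.0566 in Tribolium (SD, n = 8) and 0.0364 ± 0.0193 without library 8 (SD, n = 7). No p-value was computed between the species, since the Drosophila cells are a single value without replicates, for which an exact permutation against 8 libraries reaches at best p = 0.111. Species, stage, isolation and labelling of the cells cannot be told apart. The labels may have been transferred between the sets, by a method that the sources used here do not give.

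The labels that join NBs II/INPs with newborn neurons gave a similar picture. Among the 3 labels that name NBs II/INPs, the certain label held 10.0% of the Drosophila cells (95% interval 8.28% to 12.1%), against 10.7% ± 9.13 in Tribolium (SD, n = 8) and 7.77% ± 4.40 without library 8 (SD, n = 7). Libraries 2, 4, 6 and 7 lay between 10.3% and 11.8%, close to the Drosophila value. Library 1 lay lower, at 6.94%, and library 3 had 0 of 11 cells. Library 5 lay at 3.90%, with an interval (2.75% to 5.36%) wholly below the Drosophila one. The difference, Drosophila minus Tribolium, was -0.605 percentage points with library 8 and 2.28 without it. Library 8 lay at 30.9% (95% interval 28.7% to 33.1%). In that library 551 NBs II/INPs cells stood beside 508 cells of NBs II/INPs/newborn neurons_1?, whereas library 5 had 36 beside 710.

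**Figure D2:**
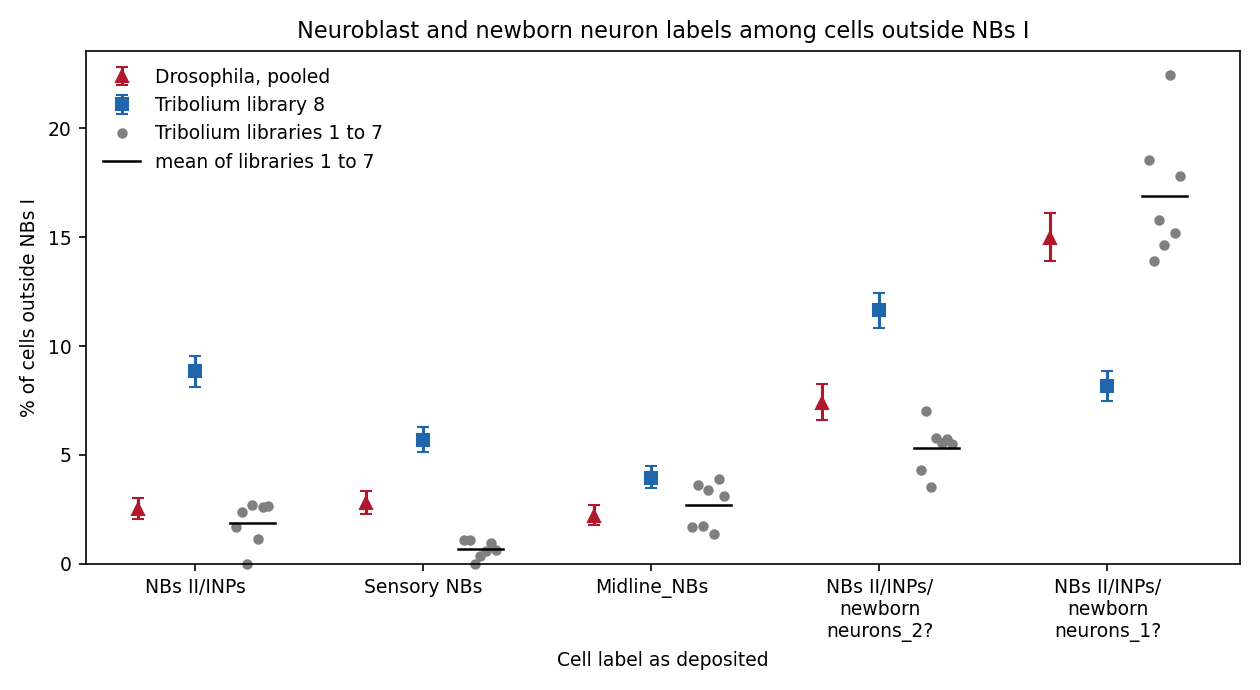
Share of 5 labels among the cells outside NBs I, in percent, in the pooled Drosophila set (triangles), Tribolium library 8 (squares) and Tribolium libraries 1 to 7 (grey points, with their mean as a line); bars are exact 95% counting intervals. NBs II/INPs stood at 2.50% in Drosophila, 8.83% in library 8 and at most 2.72% in libraries 1 to 7, while NBs II/INPs/newborn neurons_1? had its lowest beetle share in library 8.

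NBs II/INPs was then set against 5 other labels within each beetle library, with the library as the unit and an exact two-sided sign-flip permutation test adjusted over the 5 labels by the Benjamini-Hochberg method. The smallest raw p this allows is 0.0078. NBs II/INPs exceeded Sensory NBs by 1.17 ± 0.840 percentage points of all cells (SD, n = 8 libraries, exact permutation p = 0.016, adjusted 0.020). It was higher in 7 libraries and equal in library 3, where both labels had 0 cells. In Drosophila the 2 labels stood at 103 cells of NBs II/INPs and 115 of Sensory NBs.

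Against Midline_NBs, named for neuroblasts at the midline, no difference passed the test over the 8 libraries, and the sign of the mean changed with the libraries included. NBs II/INPs had fewer cells than Midline_NBs in 6 libraries, as many in library 1 with 25 each, and more in library 8, with 551 against 247. The mean difference was -0.0476 ± 1.69 percentage points (SD, n = 8, exact permutation p = 0.97, adjusted 0.97). Without library 8 it was -0.623 ± 0.479 points (SD, n = 7, exact permutation p = 0.031, adjusted 0.031). Drosophila had 103 NBs II/INPs cells and 90 Midline_NBs cells, 1.14 per Midline_NBs cell. In the 7 libraries other than library 8 this ratio ran from 0 to 1.00.

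NBs II/INPs was rarer than both labels with a question mark. It lay below NBs II/INPs/newborn neurons_2? in each of the 8 libraries, with a mean difference of -2.69 ± 0.627 points (SD, n = 8, exact permutation p = 0.0078, adjusted 0.020). In points this difference ran from -3.76 to -2.17, with library 8 inside the range of the others. As a ratio library 8 was the highest, with 0.759 NBs II/INPs cells per cell of NBs II/INPs/newborn neurons_2?, against 0 to 0.485 in the other libraries. NBs II/INPs lay below NBs II/INPs/newborn neurons_1? in 7 of 8 libraries, with a mean difference of -10.4 ± 5.38 points (SD, n = 8, exact permutation p = 0.016, adjusted 0.020). Library 8 was the exception, with a difference of 0.563 points. Drosophila had 0.338 NBs II/INPs cells per cell of the second newborn neuron label and 0.167 per cell of the first. NBs II/INPs was below NBs I in 8 of 8 libraries, with a mean difference of -17.9 ± 4.89 points (SD, n = 8, exact permutation p = 0.0078, adjusted 0.020).

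**Figure D3:**
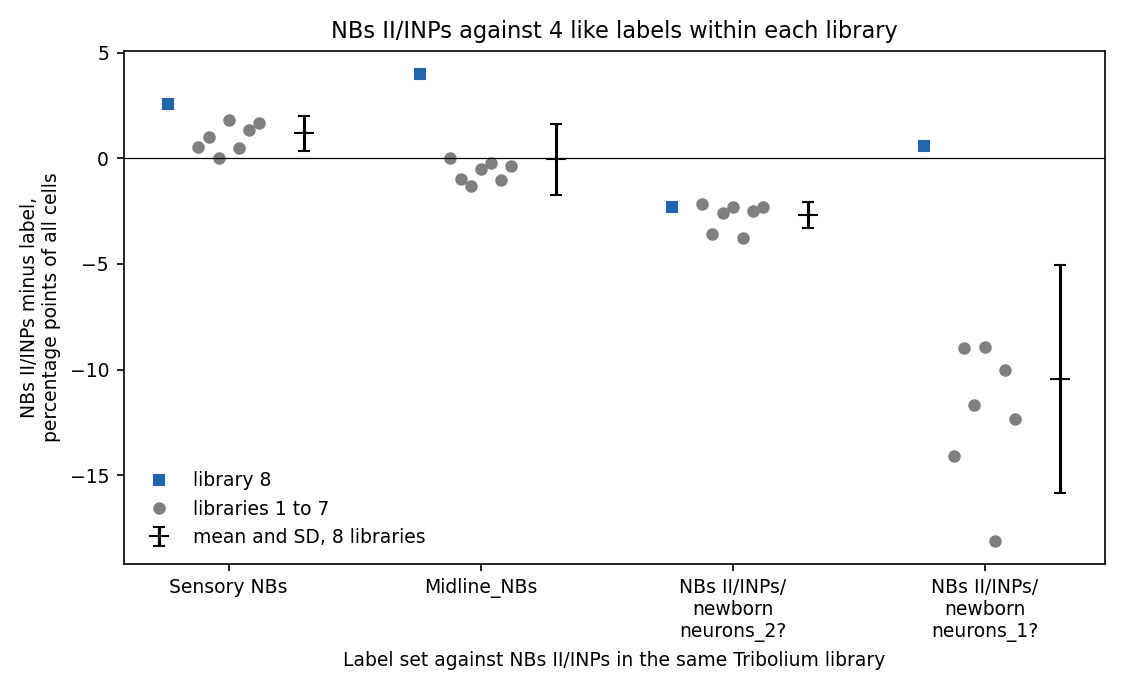
Share of NBs II/INPs minus the share of each of 4 other labels in the same Tribolium library, in percentage points of all cells; squares are library 8, grey points libraries 1 to 7, and the bars at the right of each label the mean and SD of the 8 libraries. Differences above 0 mean more NBs II/INPs cells: they were at or above 0 for Sensory NBs in every library, between -3.76 and -2.17 where NBs II/INPs/newborn neurons_2? was subtracted, and above 0 in library 8 alone for Midline_NBs and NBs II/INPs/newborn neurons_1?.

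Since library 8 stood apart, relations between labels over libraries were computed without it. Over the other 7 libraries the NBs II/INPs and Midline_NBs shares had a Pearson's r of 0.82 (exact permutation p = 0.024), but with Benjamini-Hochberg adjustment over 5 labels it missed the threshold (adjusted p = 0.12). Spearman's rho was 0.71 (exact permutation p = 0.088, adjusted 0.44). Leaving out libraries 3 and 5 as well, whose NBs II/INPs shares were farthest from the median, gave r = 0.83 over the remaining 5. For the other 4 labels r lay between -0.20 and 0.72, with adjusted exact permutation p of at least 0.28. These shares have the total of the library in common, so they are not independent measures.

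Few barcodes were shared between libraries. Of 21076 beetle barcodes 72 occurred in 2 libraries, with the same label in both for 15 of them, and none occurred in more. These barcodes covered 0.681% of all beetle cells and 0.901% of the beetle NBs II/INPs cells, which is 7 cells, 3 of them in library 8. In no case (0 barcodes) did both cells carry NBs II/INPs, and 4 of the 7 partner cells carried GMC. Of all 21148 beetle cells, 8391 carried GMC, the most frequent beetle label, and 777 carried NBs II/INPs. Whether the labels of shared barcodes differ from random pairing was not tested. Of the Drosophila cells 193 had a barcode suffix and 10232 had none, and 64 barcodes occurred in both forms. NBs II/INPs made up 0.518% of the Drosophila cells with a suffix (1 cell, 95% interval 0.0131% to 2.85%), against 0.997% of those without (95% interval 0.814% to 1.21%). The intervals overlap, and whether these shares differ was not tested.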

How the data were processed

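The authors deposited 1 table with a 16-base barcode, 1 of 10 text labels and a species per cell. Cell Ranger and Scanpy are named without version or role, per the submitters' processing notes, and the table's name speaks of label transfer. The sources used here do not give its method, cell filters, doublet handling or genome builds. Barcode suffixes 1 to 8 of beetle cells were matched to the replicate numbers in the sample titles, a match by number alone. Nothing states that the libraries are separate embryo collections. The p-values over libraries then measure only the spread between these samples, which may be technical.

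Means and SDs weight libraries equally. A count of 0 allows up to 3 cells of the denominator. Alternatives covered weighting, denominators, libraries under 500 cells, shared barcodes, Drosophila suffixes and each library in turn. The labels set against NBs II/INPs and the measures were chosen with earlier results of these data known, and the share among 3 labels, cells per GMC cell and the denominators without non-neural labels were added after seeing the values. With no expression values, planned marker genes were not used, and labels were named instead of genes. Computation used Python 3.11.15 with scipy 1.17.1, numpy 2.4.6 and pandas 2.3.3, and plots used matplotlib 3.10.9.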

Additional observations from a re-analysis of the deposited data

Results flagged for a closer look

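Of 6 measures of NBs II/INPs abundance, all 6 put library 8 farther from its neighbour than Dixon's 95% critical value, which sets that gap against the range of the 8 libraries. Chance flags about 1 in 20 sets of equally precise values. That rate does not apply here, since the libraries held 77 to 7639 cells and the plan already set library 8 apart. The 6 measures share their numerator, so they count as a single pattern. In library 8 the values were 0.394 NBs II/INPs cells per NBs I cell, 21.6% of the 4 certain neuroblast labels, 8.83% of the cells outside NBs I, 7.21% of all annotated cells, 30.9% of the 3 labels that name NBs II/INPs and 0.188 cells per GMC cell. The gap was 0.705 of the range per NBs I cell and 0.579 among the 4 certain neuroblast labels. At the low end, library 3 was not flagged on any of the 6 measures, with gaps of at most 0.253 of the range.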

How the results depend on the processing

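For the beetle means of the 6 measures, 68 recomputed values all stayed within 1 SD of the value reported, but library 8 makes that SD wide. Leaving out each library in turn gave 0.0772 to 0.133 NBs II/INPs cells per NBs I cell, 6.20% to 9.29% of the 4 certain neuroblast labels and 1.89% to 3.16% of the cells outside NBs I, the lowest each time without library 8. With all beetle cells pooled these were 0.201, 13.8% and 4.50%. Of 72 recomputed Drosophila minus Tribolium differences 3 moved by more than 1 SD, all with both newborn neuron labels counted as NBs II/INPs, to -0.879 cells per NBs I cell, -32.3 points among the neuroblast labels and -9.97 points of all cells; outside NBs I the difference then turned to 0.192 points. Per NBs I cell the difference stayed below 0 without each library in turn (-0.117 to -0.0609), while outside NBs I it ran from -0.656 to 0.606 points. With the non-neural labels and PCGs left out it was -0.0949 points.

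NBs II/INPs minus Midline_NBs changed sign without library 2, 3, 4 or 6 (0.0831, 0.131, 0.0185 and 0.0922 points) and in the 6 libraries with at least 500 cells (0.238), and ranged from -0.623 to 0.131 over libraries left out. In those 6 libraries the differences from Sensory NBs (1.27 points), NBs II/INPs/newborn neurons_1? (-10.5), NBs II/INPs/newborn neurons_2? (-2.77) and NBs I (-15.7) no longer passed the adjustment (adjusted exact permutation p = 0.052, 0.078, 0.052 and 0.052), where the smallest raw p that 6 libraries allow is 0.031. The Pearson correlations of the NBs II/INPs share with Midline_NBs, NBs II/INPs/newborn neurons_2? and Sensory NBs passed over 8 libraries. Over all 8, r was 0.68, 0.96 and 0.96 in that order, and without library 8, where none passed, 0.82, 0.72 and 0.56. Leaving out libraries 8 and 3, whose NBs II/INPs shares were farthest from the median, gave 0.91, 0.15 and -0.10. No Spearman's rho passed over the 8 libraries (adjusted exact permutation p of at least 0.11). The alternative with shares outside NBs I could not be computed for NBs I itself. The number of cells limited library 3 most, with 77 cells, and library 4, with 392.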
